A study of Mus musculus with 10 samples.

Results

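Rap GTPases and their regulators were followed in cultured mouse cholangiocytes, the epithelium of the bile ducts. The 10 genes are Rap1a and Rap1b, the exchange factors Rapgef1 and Rapgef2, and the GTPase-activating proteins Sipa1, Sipa1l1, Sipa1l2, Sipa1l3, Rap1gap and Rap1gap2. They were taken by symbol from a table of 18407 genes, and all 10 were in it and passed the filter on low counts, as did 10789 genes in all. They were chosen by their counts, scaled to library totals, in the laminin against the collagen libraries of this table, so values from that comparison are given for the 10 genes as a description.

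The cells were the NMC line, untreated, grown as 3D double spheroids for 6 days before RNA was taken. There were 5 libraries from spheroids in 1 mg/mL collagen I, and the other 5 came from a mixture of laminin and collagen I in volume parts of 3 to 1, so collagen I was present in both groups. The collagen I concentration of the mixture and the way cultures were divided into samples are not given in the labels, and p-values therefore measure the spread between these samples of 1 line. The series compared the matrices for their effect on cholangiocyte phenotype.

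Rap proteins are small GTPases of the Ras family that switch between an inactive GDP-bound and an active GTP-bound form. Guanine nucleotide exchange factors (GEFs) load them with GTP, and GTPase-activating proteins (GAPs) return them to the inactive form. Active Rap1 is best known for raising integrin affinity for the extracellular matrix through talin and for supporting cadherin-based junctions in epithelia. Messenger RNA levels, measured here, do not report the GTP-bound state.

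Total counts ran from 4424725 to 8129979 per library, and values below are depth-scaled counts (CPM) with library sizes adjusted by the TMM method. Keratin and biliary markers were present. Mean levels were 1174.5 CPM for Krt8 and 1042 CPM for Krt19, but 21.3 CPM for Sox9 and 5.06 CPM for Krt7. Of the 10 cholangiocyte markers, 9 had a mean of at least 1 CPM (Cldn4 did not). Their summed level ran from 3724 to 5721 CPM in collagen and from 3749 to 5443 CPM in laminin. Rap regulators are abundant in blood cells, and the markers of those cells were low: leukocyte markers summed to between 4.95 and 9.76 CPM in the 10 libraries, with 1 of 10 at a mean of 1 CPM or more. Platelet markers summed to 29.7 to 47.4 CPM in collagen and 40.8 to 66.2 CPM in laminin, nearly all of it Itgb3, which other cells also express, while Itga2b averaged 3.78 CPM and Pf4, Ppbp, Gp1ba and Gp9 at most 0.0918 CPM. Endothelial markers summed to 1.12 to 2.36 CPM, with Cdh5, Kdr, Emcn and Cldn5 at 0. Fibroblast markers summed to 23.6 to 29.4 CPM in collagen and 22.3 to 55.4 CPM in laminin, with the highest sum in laminin replicate 4. Col1a1 averaged 12.8 CPM, Pdgfra 6.65, Dcn 5.78, Pdgfrb 2.03 and Col3a1 1.19. Acta2, Col1a2 and Lum averaged at most 0.176 CPM, and Thy1 was at 0. Hepatocyte markers, led by Hnf4a, summed to 88.4 to 136 CPM in collagen and to 136 to 185 CPM in laminin, with Alb at 27.1 and Apoa1 at 1.77 CPM on average, Ttr between them, and Cyp2e1 and Cyp3a11 at 0. The part of these markers in the results below was not tested.

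Libraries differed in how counts depended on transcript length. The slope of log2 CPM, relative to the mean of the 10 libraries, ran from -0.37 to 0.18 per doubling of length in collagen and from -0.12 to 0.16 in laminin. Collagen replicate 4 (-0.37) and collagen replicate 5 (-0.19) had the lowest slopes, and these 2 libraries carry the letter D in their library codes while the other 3 collagen libraries carry the letter B. The meaning of the letter is not stated. The laminin libraries carry the letters E (3 libraries) and F (2 libraries), so no letter occurs in both matrices, and letter and matrix cannot be told apart.

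Reads of Rap1a and Rap1b could be confused only if their sequences were alike, and their coding starts are shown to let a reader judge this. In GENCODE M21 transcripts (GRCm38) both coding sequences are 552 bases long without the stop codon and differ at 101 bases, so that they are 81.7% identical, and 78 of the differences fall on the third base of a codon. The first 120 coding bases follow, read 5′ to 3′ from the start codon, with capitals at the 17 bases that differ, all on the third base of a codon.
Rap1a: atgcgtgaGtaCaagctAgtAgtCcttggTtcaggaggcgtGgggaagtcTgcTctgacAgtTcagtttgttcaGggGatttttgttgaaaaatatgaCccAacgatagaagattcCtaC
Rap1b: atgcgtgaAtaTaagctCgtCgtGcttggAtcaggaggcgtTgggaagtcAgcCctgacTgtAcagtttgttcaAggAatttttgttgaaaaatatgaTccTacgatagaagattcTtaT
The longest identical run between the coding sequences was 20 bases.

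The 4 Sipa1 family genes share the catalytic Rap GAP domain. Their most alike stretch of 90 coding bases is shown, to let a reader see how far the genes differ even where all 4 are most alike. It is read 5′ to 3′, capitals mark bases that are not the same in all 4 genes, and 65 bases are the same in all.
Sipa1: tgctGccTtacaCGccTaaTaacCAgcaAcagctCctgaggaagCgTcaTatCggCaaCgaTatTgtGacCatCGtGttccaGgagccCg
Sipa1l1: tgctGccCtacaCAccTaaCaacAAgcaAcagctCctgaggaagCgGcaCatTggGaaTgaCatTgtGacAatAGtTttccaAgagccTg
Sipa1l2: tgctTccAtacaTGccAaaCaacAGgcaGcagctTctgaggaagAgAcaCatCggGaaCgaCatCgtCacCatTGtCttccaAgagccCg
Sipa1l3: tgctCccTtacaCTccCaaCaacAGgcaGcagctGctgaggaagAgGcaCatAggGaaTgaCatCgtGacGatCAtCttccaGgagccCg
Over the coding bases that aligned, Sipa1l2 was 61.4% identical to Sipa1l1 (4927 bases), 61.1% to Sipa1l3 (4905 bases) and 56.7% to Sipa1 (3013 bases). The coding sequence of Sipa1l2 has 5166 bases, and its longest run shared with any of them was 33 bases, with Sipa1l1.

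Counted in windows of 50 bases along the longest transcript, none of the windows of Sipa1, Sipa1l1, Sipa1l2, Sipa1l3, Rap1gap, Rap1gap2, Rap1b or Rapgef1 occurred in a transcript of another annotated gene. Rap1a shared 223 of 2358 windows (9.46%), nearly all with the processed pseudogene Gm9392, and Rapgef2 shared 2. Rap1a counts are uncertain to the extent that reads were shared with such copies. Exons of Rapgef1 overlap those of the pseudogene Gm9823 on the opposite strand, and no source used here says whether the counting used strand.

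The genes lie apart in the genome. In GRCm38 coordinates Sipa1l2 spans chromosome 8 from 125418063 to 125569808 on the minus strand, Rap1gap2 chromosome 11 from 74383356 to 74610915 (minus), Rap1gap chromosome 4 from 137664726 to 137729861 (plus) and Sipa1 chromosome 19 from 5651185 to 5663707 (minus). Rap1a lies on chromosome 3 from 105727267 to 105801336 (minus) and Rapgef2 on the same chromosome from 79062516 to 79286517 (minus). Rap1b lies on chromosome 10 from 117813871 to 117846035 (minus), Rapgef1 on chromosome 2 from 29619720 to 29740978 (plus), Sipa1l1 on chromosome 12 from 82169320 to 82451786 (plus) and Sipa1l3 on chromosome 7 from 29320372 to 29518641 (minus). All are protein-coding.

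Levels were compared between genes as CPM per kilobase of the longest annotated transcript. The GTPases Rap1a (70.0 ± 9.93 CPM per kb, SD, n = 10 libraries) and Rap1b (58.5 ± 7.19) and the GAP Sipa1 (55.4 ± 6.87) formed the upper end of the order. Rapgef1 followed at 15.6 ± 1.53 CPM per kb, with Sipa1l1 at 11.3 ± 1.44, Sipa1l3 at 11.1 ± 1.48 and Rap1gap at 9.72 ± 2.40. Rapgef2 (4.49 ± 1.16 CPM per kb), Rap1gap2 (4.48 ± 1.71) and Sipa1l2 (2.84 ± 1.31) were the lowest.

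The library ranges of Rap1a, Rap1b and Sipa1 lay above those of the other 7 genes. Lower in the order the ranges ran into each other, with Rap1gap and Rapgef2 the only neighbours that did not overlap, while Rap1gap (lowest library 6.47 CPM per kb) overlapped Rap1gap2 (highest library 7.57). Rap1b and Sipa1 changed places between libraries, with Rap1b higher in 5 of 10, and so did Sipa1l1 and Sipa1l3 (Sipa1l1 higher in 6 of 10) and Rapgef2 and Rap1gap2 (Rapgef2 higher in 6 of 10). Rap1a was above Rap1b in 10 of 10 libraries per length, although by counts the genes were nearly even: Rap1a made up 50.9% ± 1.37 (SD, n = 5) of their summed counts in collagen and 51.8% ± 2.84 in laminin. The order rests on the longest transcript of each gene, which need not be the one these cells use.

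**Figure D1:**
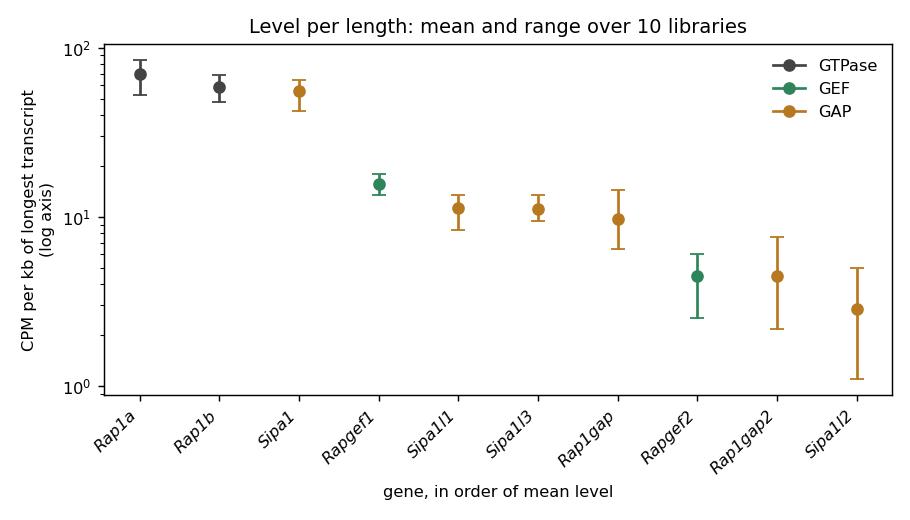
Level of each gene in CPM per kilobase of its longest transcript on a log axis, as the mean over 10 libraries (point) with the lowest and highest library (bars), coloured by role. Rap1a, Rap1b and Sipa1 lie at or above 42.2 CPM per kb in every library, and Sipa1l2 lies lowest on average at 2.84 CPM per kb.

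Sipa1l2, a GAP for Rap studied mainly in neurons, was the member with the largest difference between matrices, and it rose in the laminin-rich matrix. In collagen it stood at 15.2, 13.6, 12.8, 7.32 and 8.97 CPM in replicates 1 to 5, and in laminin at 20.4, 27.8, 26.8, 33.4 and 23.5 CPM. Every laminin library was above every collagen library, and the lowest collagen values were those of replicates 4 and 5. The means were 11.6 ± 3.30 and 26.4 ± 4.88 CPM (SD, n = 5 per group), a log2 difference of 1.18 (SE 0.20). The raw counts behind them ran from 36 to 108 in collagen and from 102 to 223 in laminin. In bulk RNA a smaller number of expressing cells and less RNA per cell cannot be told apart.

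Sipa1l2 was the 1 member of 10 that passed the edgeR quasi-likelihood test at an adjusted p (Benjamini-Hochberg, over all genes) under 0.05, where 0.148% of all genes tested passed (16 of 10789, 0.139% higher and 0.00927% lower in laminin). Because the member was chosen with this comparison known, nothing is read from that count. The call was lost without collagen replicate 2 (log2 difference 1.22), 3 (1.22), 4 (1.06) or 5 (1.10), without laminin replicate 2 (1.14), 3 (1.15), 4 (1.06) or 5 (1.22), and with library totals in place of TMM (1.17). It was also lost without the collagen libraries of letter D (0.93) and with the replicate number as a block (1.19). It held without the collagen libraries of letter B (1.66), a fit that called 2083 of 11018 genes tested. Rap1gap2 (1.27) and Rapgef2 (0.75) were also called in that fit. The call of Sipa1l2 also held once each library was corrected for its trend on transcript length and GC content (0.99). The fit after that step, named the trend correction below, called 125 of 10789 genes. Nothing is read from these calls either.

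Within its family the share of Sipa1l2 needs no depth scaling between libraries. It rests on the counts by which the genes were chosen, so nothing is read from its difference by matrix. It made up 6.35% ± 1.16 (SD, n = 5) of the summed counts of Sipa1l1, Sipa1l2 and Sipa1l3 in collagen, with a range of 4.89% to 7.82%, and 12.2% ± 1.33 in laminin, with a range of 10.2% to 13.5%. Per length it was 2.32% ± 0.75 of the Sipa1 family in collagen and 4.59% ± 0.80 in laminin, while Sipa1 made up 69.5% ± 5.66 and 67.7% ± 3.69. Sipa1l2 thus stayed the smallest part of the family in both matrices. Its share of the counts of Sipa1l1, Sipa1l2 and Sipa1l3 was 7.82%, 6.57% and 6.94% in collagen replicates 1 to 3 (letter B). That share was 4.89% and 5.51% in collagen replicates 4 and 5 (letter D).

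Its 3 relatives gave smaller differences. Sipa1, a Rap GAP first described in lymphocytes, was at 201 ± 30.3 CPM in collagen and 222 ± 18.8 in laminin (log2 difference 0.14, SE 0.12). Sipa1l1, a postsynaptic Rap GAP in neurons, gave 0.14 (SE 0.12) and Sipa1l3 0.20 (SE 0.12). All 3 had overlapping library ranges, and after the trend correction the differences were 0.07 for Sipa1, -0.05 for Sipa1l1 and -0.07 for Sipa1l3.

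Rap1gap2, a GAP known from platelets, was the other member whose library ranges did not overlap. It stood at 27.8, 26.0, 21.3, 14.2 and 16.3 CPM in collagen replicates 1 to 5 and at 30.2, 43.9, 49.7, 29.9 and 35.0 CPM in laminin replicates 1 to 5. The highest collagen library and the lowest laminin library were close. The difference of 0.83 on the log2 scale (SE 0.21, means 21.1 ± 5.89 and 37.7 ± 8.74 CPM) did not pass in edgeR. DESeq2 called it, as it did 1.94% of all genes tested, and nothing is read from that call. Ranges that did not overlap occurred in 2 of the 10 members and in 3.23% of all genes tested (1.94% with laminin higher), and nothing is read from that count. Rap1gap, its closest relative among the members, stood at 40.0 ± 12.9 CPM in collagen and 40.5 ± 7.34 in laminin, a log2 difference of 0.02 (SE 0.21).

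**Figure D2:**
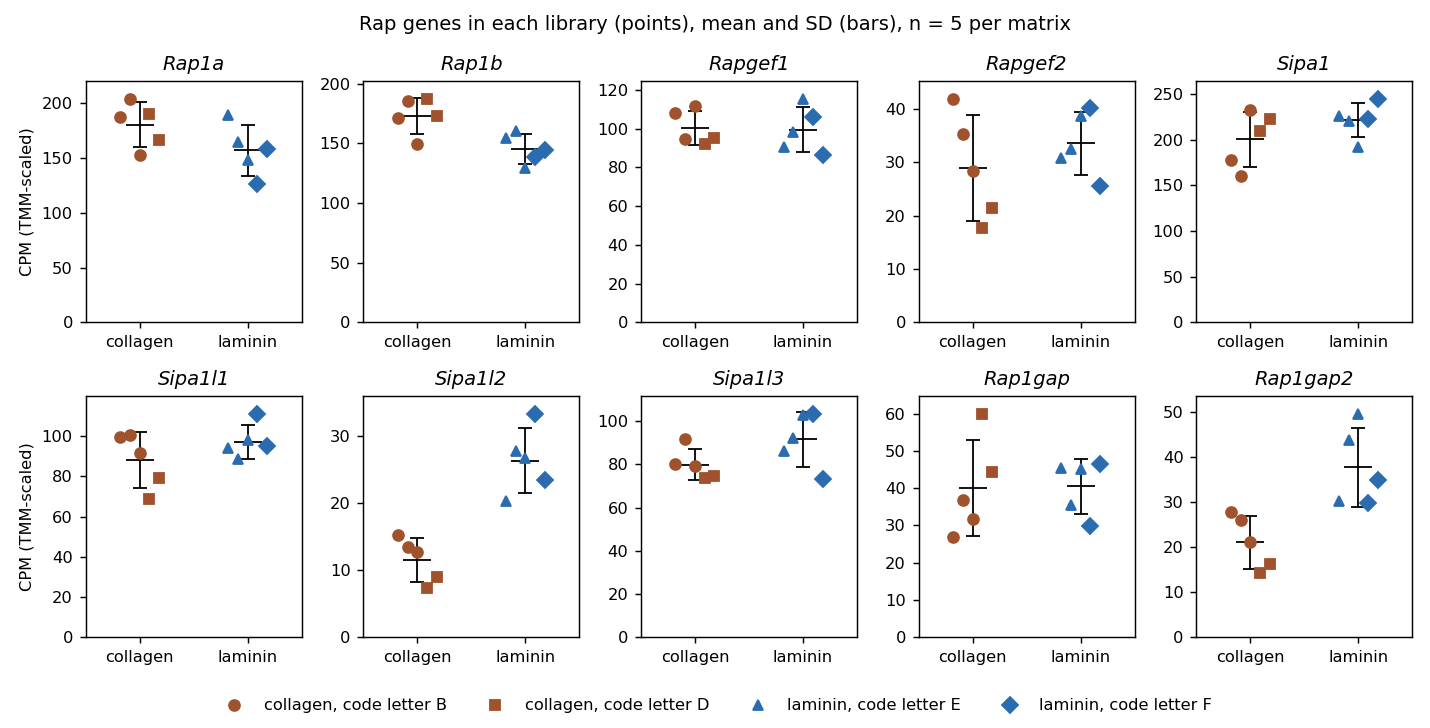
CPM of the 10 genes in each library (points, shaped by library code letter) with the mean and SD of each matrix (bars, n = 5), on axes that start at 0. Sipa1l2 and Rap1gap2 are the panels in which the matrices do not overlap, and in collagen the letter D libraries lie lowest for Sipa1l2, Rap1gap2 and Rapgef2 and highest for Rap1gap.

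The GTPases themselves lay lower in laminin on average, and neither passed the test. Rap1b was at 171, 185, 149.6, 187 and 173 CPM in collagen replicates 1 to 5 and at 154, 161, 129, 138 and 145 CPM in laminin replicates 1 to 5. Collagen replicate 3 lay inside the laminin range, so the groups overlapped through that library. The log2 difference was -0.25 (SE 0.10) for Rap1b and -0.20 (SE 0.12) for Rap1a, which was at 180.0 ± 20.4 CPM in collagen and 157 ± 23.2 in laminin. After the trend correction they were -0.14 and -0.05.

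The GEFs had small differences that did not pass. Rapgef1, which is brought to the membrane by Crk adaptors downstream of adhesion receptors, was at 100.3 ± 8.94 CPM in collagen and 99.4 ± 11.7 in laminin (log2 difference -0.01, SE 0.11). Rapgef2, a GEF with a PDZ domain, was at 29.0 ± 9.89 and 33.5 ± 5.95 CPM (0.21, SE 0.22). The value for Rapgef2 depended on the collagen libraries used. It was 0.75, and called, without those of letter B, a fit that called 2083 of 11018 genes tested. It was -0.06 without those of letter D, 0.37 without collagen replicate 1, 0.08 without replicate 4 and 0.12 without replicate 5. Over the 10 members the log2 differences ran from -0.25 to 1.18 with a median of 0.14, against 0.01 over all genes tested. Of these members 7 were above 0, against 51.7% of all genes. Because the members were chosen with this comparison known, nothing is read from that median or count. After the trend correction Sipa1l1 (-0.05), Sipa1l3 (-0.07) and Rap1gap (-0.06) fell below 0. Sipa1 (0.07), Sipa1l2 (0.99), Rap1gap2 (0.68) and Rapgef2 (0.09) stayed above it. Rapgef1 moved from -0.01 to -0.21, the lowest of the 10 members in that fit, and did not pass.

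Summed per length, the 6 GAPs came to 88.3 ± 6.24 CPM per kb in collagen and 101 ± 2.68 in laminin, with ranges of 81.3 to 95.2 and 98.2 to 105.3. The 2 GTPases came to 138 ± 13.6 and 119 ± 13.1 CPM per kb, and the 2 GEFs to 19.8 ± 2.46 and 20.3 ± 2.63. Most of the GAP sum was Sipa1, at 52.7 ± 7.94 CPM per kb in collagen and 58.1 ± 4.92 in laminin. These sums are descriptions with no test.

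A comparison that the choice of genes did not use is the one between collagen libraries. Rapgef2 was lower, and Rap1gap higher, in the letter D libraries than in the letter B libraries. Rapgef2 stood at 41.9, 35.3 and 28.4 CPM in collagen replicates 1 to 3 (letter B) and at 17.7 and 21.5 CPM in replicates 4 and 5 (letter D). Rap1gap stood at 26.8, 36.9 and 31.8 CPM in letter B and at 60.0 and 44.4 CPM in letter D. Sipa1l2 was also lower in D, at 8.15 ± 1.17 against 13.8 ± 1.27 CPM (SD, n = 2 and 3). The letters did not overlap in these 3 genes, nor in Sipa1l1, Sipa1l3 and Rap1gap2, which makes 6 of 10 members against 58.9% of all genes tested, a share near the background.

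In the fit over all genes the log2 difference of D minus B was -0.84 (SE 0.23) for Rapgef2, with an adjusted p of 0.0357 in the edgeR quasi-likelihood test (Benjamini-Hochberg). It was 0.71 (SE 0.22) for Rap1gap (edgeR adjusted p = 0.0448) and -0.76 (SE 0.24) for Sipa1l2 (edgeR adjusted p = 0.0498). Thus 3 of 10 members passed, against 15.8% of all genes tested, with 2 members lower and 1 higher against 10.4% and 5.42% of all genes. Sipa1l1 (-0.39, SE 0.14) and Rap1gap2 (-0.70, SE 0.23) had adjusted p of 0.0613 and 0.0538 in edgeR and were called by DESeq2. Rap1a, Rap1b, Sipa1, Sipa1l3 and Rapgef1 had adjusted p from 0.419 to 0.937 in edgeR.

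These 3 calls were lost without collagen replicate 1, 2, 4 or 5 or laminin replicate 2, where in that order the log2 difference was -0.67, -0.82, -0.71, -0.99 and -0.82 for Rapgef2. For Rap1gap it was 0.63, 0.85, 0.48, 0.92 and 0.73, and for Sipa1l2 -0.66, -0.75, -0.62, -0.92 and -0.74. Rap1gap (0.73) and Sipa1l2 (-0.74) were also lost without laminin replicate 3, and in limma-voom (0.71 and -0.74). Sipa1l2 was lost as well with library totals (-0.74) and with a filter of 1 CPM in 5 libraries (-0.74). Without collagen replicate 4 or 5 letter D has 1 library, whose spread is taken from the other groups. After the trend correction 0 of 10 members passed in edgeR, and the differences were -0.37 for Rapgef2, 0.52 for Rap1gap and -0.54 for Sipa1l2. Between the laminin letters, F minus E called no member in edgeR, DESeq2 or limma-voom (adjusted p of 1.00 for each in edgeR, none with an unadjusted p under 0.05), where 0% of all genes tested passed in edgeR.

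**Figure D3:**
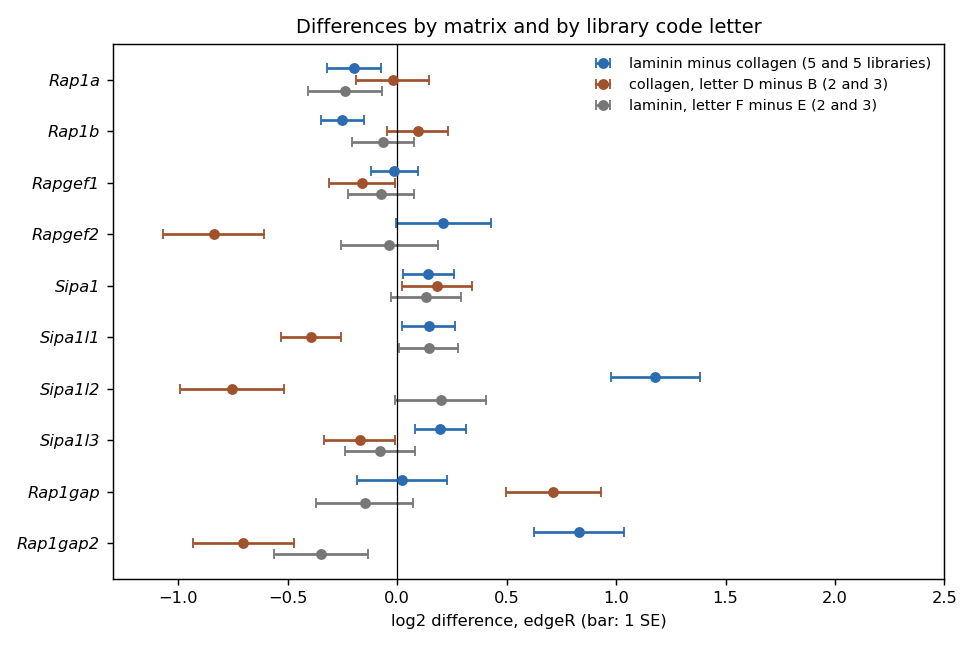
Log2 differences (points) with 1 SE (bars) from edgeR for the 10 genes, by matrix, between the collagen libraries of letters D and B, and between the laminin libraries of letters F and E. By matrix Sipa1l2 lies farthest from 0 at 1.18, and between the collagen letters Rapgef2 (-0.84) and Rap1gap (0.71) lie on opposite sides.

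Across the 10 libraries, levels of several members moved with the length slope, a relation examined after the values had been seen. Levels and slopes were taken as deviations from their matrix means, and the slopes were permuted within each matrix in an exact two-sided test of 14400 arrangements, adjusted over all genes tested. For Rapgef2 Pearson's r was 0.98 (exact permutation p = 1.4e-04, adjusted p = 0.0039, n = 10) and Spearman's rho 0.98 (exact permutation p = 2.8e-04, adjusted p = 0.0063). For Sipa1l2 r was 0.91 (exact permutation p = 0.0025, adjusted p = 0.0123) and rho 0.84 (exact permutation p = 0.0112, adjusted p = 0.0383). For Sipa1l3 r was 0.75 (exact permutation p = 0.0017, adjusted p = 0.0096) and rho 0.85 (exact permutation p = 0.0021, adjusted p = 0.0152).

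Rap1gap ran the other way, with r at -0.80 (exact permutation p = 0.0199, adjusted p = 0.0487) and rho at -0.81 (exact permutation p = 0.0188, adjusted p = 0.0539). Rap1gap2 had r at 0.79 (exact permutation p = 0.0202, adjusted p = 0.0492) with rho at 0.82 (exact permutation p = 0.0195, adjusted p = 0.0550), and Sipa1l1 r at 0.87 (exact permutation p = 0.0075, adjusted p = 0.0247) with rho at 0.78 (exact permutation p = 0.0356, adjusted p = 0.0828). Sipa1 gave r = -0.73 (exact permutation p = 0.0627, adjusted p = 0.115) and rho = -0.78 (exact permutation p = 0.0272, adjusted p = 0.0688), and Rapgef1 r = 0.59 (exact permutation p = 0.0643, adjusted p = 0.117) and rho = 0.62 (exact permutation p = 0.0543, adjusted p = 0.110). Rap1a gave r = -0.06 (exact permutation p = 0.861, adjusted p = 0.893) and rho = -0.04 (exact permutation p = 0.912, adjusted p = 0.935), and Rap1b r = -0.22 (exact permutation p = 0.591, adjusted p = 0.665) and rho = -0.28 (exact permutation p = 0.451, adjusted p = 0.544).

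By r, 6 of 10 members passed, against 41.3% of all genes tested (21.5% positive and 19.8% negative). Without the 2 libraries farthest from the median slope (n = 8), r was 0.96 for Rapgef2, 0.72 for Sipa1l2, 0.83 for Sipa1l3, -0.45 for Rap1gap, 0.50 for Rap1gap2 and 0.56 for Sipa1l1. The relations of Rap1gap, Rap1gap2 and Sipa1l1 thus rest largely on those 2 libraries. They are collagen replicates 4 and 5, the letter D libraries, so slope and letter cannot be told apart there. With 5 libraries per matrix the relation was not computed within a matrix. Over the fits that left out 1 library in turn, the calls of Rapgef2, Sipa1l2 and Sipa1l3 held in every one. Sipa1l1 lost its call without any 1 of the 5 collagen libraries (r from 0.74 to 0.88), and Rap1gap without any 1 library other than collagen replicate 2 or laminin replicate 3 (r from -0.84 to -0.64), and also with library totals (-0.80). Rap1gap2 lost its call without any 1 library other than laminin replicate 4 or 5 (r from 0.68 to 0.80), and Rapgef1 gained one without collagen replicate 2 (0.79) or 3 (0.66). By longest transcript, Sipa1l1 (8215 nt), Sipa1l3 (7713 nt), Rapgef2 (6964 nt), Sipa1l2 (6690 nt), Rap1gap2 (6565 nt) and Rapgef1 (6402 nt) are longer, and each had a positive r. Rap1gap (4140 nt), Sipa1 (3812 nt), Rap1b (2724 nt) and Rap1a (2407 nt) are shorter, and each had a negative r. The part of transcript length in these relations was not tested. The slope is itself a measure of how long and short transcripts differ in a library, computed here without the 10 members.

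In the plot of level against slope the libraries of both matrices fall on 1 band for Rapgef2 and on separate bands for Sipa1l2. Every laminin library was above every collagen library for Sipa1l2 whatever its slope, and the genes were chosen with that comparison known. The separate bands are therefore a description with no test. At slopes of 0.15 to 0.18, collagen replicates 1 and 2 had 15.2 and 13.6 CPM of Sipa1l2, and at slopes of 0.16 laminin replicates 3 and 4 had 26.8 and 33.4 CPM. At negative slopes, collagen replicate 5 (-0.19) had 8.97 CPM and laminin replicate 5 (-0.12) had 23.5 CPM.

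**Figure D4:**
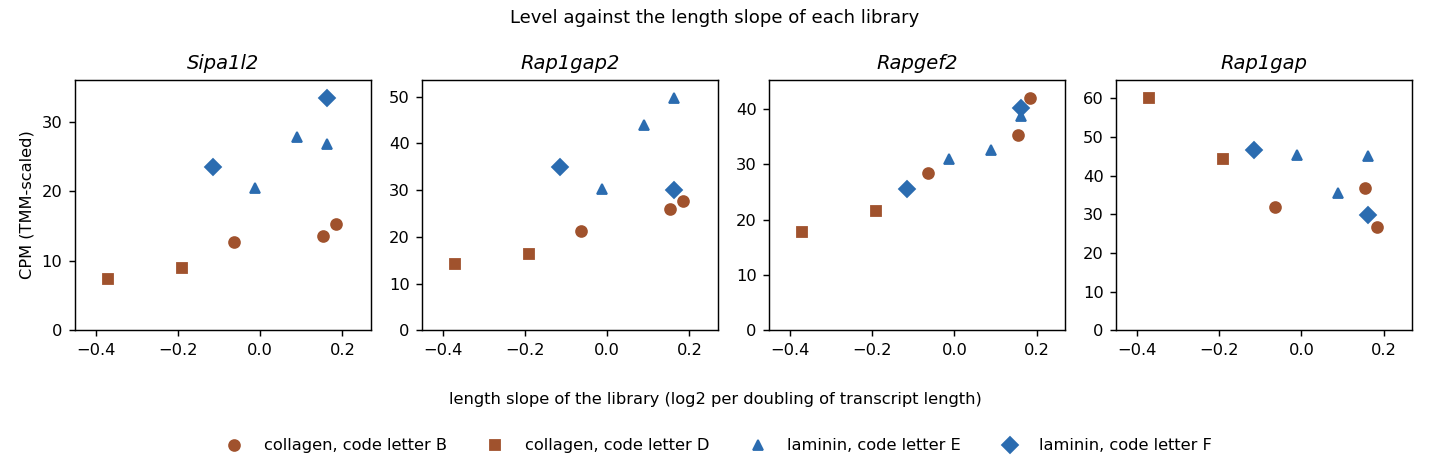
CPM of 4 genes (vertical axes, from 0) against the length slope of each library (horizontal axis, log2 per doubling of transcript length), coloured by matrix and shaped by library code letter. For Rapgef2 the libraries of both matrices fall on 1 band. Rap1gap runs the other way (r = -0.80), with r at -0.45 without the letter D libraries. Sipa1l2 and Rap1gap2 have every laminin library above every collagen library, whatever the slope.

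The genes whose deviations from the matrix means were most like those of a member were searched over the 10 libraries. The search covered 9896 genes with a mean of at least 5 CPM, and all genes in a library share its depth and length slope. For Sipa1l2 the closest genes were Pkd2 (r = 0.99), Nlk (0.99), Eif2ak2 (0.98), Kansl1 (0.98) and Plcb1 (0.98), with r from 0.91 to 0.96 after the trend correction. By matrix these 5 genes gave log2 differences from 0.02 for Eif2ak2 to 0.24 for Nlk. For Rap1gap they were Tm4sf1 (r = 0.97), Mrpl48 (0.96), Ndufa9 (0.96), Mettl22 (0.95) and Spire2 (0.95), with r from 0.79 to 0.93 after that correction. These are descriptions of the closest of many genes and carry no test.

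Members also differed in how much they varied within a matrix. The pooled SD of log2 CPM was highest for Rapgef2 (0.40), Rap1gap (0.37), Rap1gap2 (0.37) and Sipa1l2 (0.36), and lowest for Rap1b (0.13) and Rapgef1 (0.15), against a median of 0.26 over all genes tested. After the trend correction it was 0.18 for Rapgef2, 0.34 for Rap1gap, 0.29 for Rap1gap2 and 0.26 for Sipa1l2. Rapgef2 was thus the member of these 4 whose spread shrank most, and Rap1gap the one whose spread shrank least.

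The rest of the pathway was taken from 6 lists of 55 genes, of which 47 were tested. None passed by matrix in edgeR, where 0.148% of all genes passed, while 8 had an unadjusted p under 0.05 (11.6% of all genes did) and DESeq2 called 3, Rasal1, Plxnb2 and Mink1 (1.94% of all genes). The median log2 difference over the 47 was 0.12, with 32 above 0, against a median of 0.01 and 51.7% above 0 over all genes. Because the lists were chosen with earlier results of these data known, nothing is read from that median or from the counts by matrix in the lists. Of the 47, library ranges did not overlap in Rasal1, Plxnb2, Tln2 and Mink1, all higher in laminin. Over all genes tested, 3.23% had such ranges, 1.94% with laminin higher. Nothing is read from these separations either. Named genes are the 3 with the smallest p in each list.

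The Rap2 GTPases, relatives of Rap1 that signal to kinases of the Map4k family, gave -0.28 (SE 0.16) for Rap2b, -0.13 (SE 0.15) for Rap2a and -0.09 (SE 0.14) for Rap2c, with edgeR adjusted p from 0.512 to 0.851. Exons of Rap2b overlap those of B430305J03Rik and Gm37696 on the opposite strand. Of 10 other GEFs 6 were tested and 5 of these were above 0, with Dock4 at 0.71 (SE 0.37), Rapgef5 at 0.39 (SE 0.36) and Rasgrp3 at 0.31 (SE 0.31). Rasgrp1, a lymphocyte GEF, had no count in any library, and Rasgrp2, the main Rap GEF of platelets, averaged 0.20 and 0.47 CPM. Dock4 (-1.63), Rapgef5 (-1.67) and Rapgef6 (-0.90) were lower in letter D than in letter B of collagen on the log2 scale (edgeR adjusted p = 0.0298, 0.0277 and 0.0343).

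Among 5 other proteins with GAP activity on Rap, Rasal1, a GAP for Ras and Rap, had the largest difference by matrix in the lists. It stood at 5.78, 3.74, 6.80, 4.07 and 4.49 CPM in collagen replicates 1 to 5 and at 7.97, 7.44, 12.3, 19.9 and 12.2 CPM in laminin replicates 1 to 5, a log2 difference of 1.24 (SE 0.28, edgeR adjusted p = 0.109). The ranges did not overlap, and the laminin values spread widely. Garnl3 gave -0.44 (SE 0.20).

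Plexins, the semaphorin receptors, carry a cytoplasmic GAP domain that acts on Rap, and 7 of 9 were tested. Plxnb2 was abundant, at 864 ± 57.9 CPM in collagen and 1059 ± 82.3 in laminin (log2 difference 0.29, SE 0.09, edgeR adjusted p = 0.254), with ranges that did not overlap. Plxna2 gave 0.45 (SE 0.18) and Plxnb1, whose exons overlap the pseudogene Gm7628 on the opposite strand, 0.36 (SE 0.20).

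Of 16 effectors 14 were tested. Mink1, a kinase that binds Rap2, was at 155, 143, 164, 147 and 163 CPM in collagen replicates 1 to 5 and at 192, 193, 197, 189 and 201 CPM in laminin replicates 1 to 5. The groups did not overlap and the laminin libraries lay close together (log2 difference 0.33, SE 0.08, edgeR adjusted p = 0.137). The talins, which link active Rap1 to integrins, gave 0.46 (SE 0.13) for Tln2 and 0.21 (SE 0.10) for Tln1. The ranges of Tln2 met closely without overlap, with the highest collagen library at 30.14 CPM and the lowest laminin library at 30.15 CPM. Exons of Mink1 and Tln1 overlap those of Gm12316 and Creb3 on the opposite strand. Apbb1ip, the adaptor that joins Rap1 to talin in blood cells, had no count in any library. Afdn, a junction protein that binds Rap1, and Arhgap29, which acts downstream of Rap1, were lower in letter D of collagen, with log2 differences of -0.75 and -0.98 (edgeR adjusted p = 0.0285 and 0.0344).

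The 12 adaptors and enzymes of lipid modification were all tested, with 6 above 0. Magi1, a scaffold of junctions, gave 0.43 (SE 0.17), Icmt, which methylates prenylated proteins, 0.27 (SE 0.11), and Crk, the adaptor that recruits Rapgef1, 0.18 (SE 0.13). Exons of Icmt overlap those of Rnf207 on the opposite strand. Crk (-0.51), Magi1 (-0.68) and Pggt1b, a subunit of a prenyl transferase, (-1.13) were lower in letter D of collagen, and Rce1, a protease for prenylated proteins, was higher (0.64). In all, 9 of the 47 tested pathway genes passed in that comparison, with edgeR adjusted p from 0.0277 to 0.0422, against 15.8% of all genes. Of these, 8 were lower, against 10.4% of all genes, and Rce1 was higher, against 5.42%. Without collagen replicate 1 or 2 the count passing over all genes was 0, so these calls were lost there.

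**Figure D5:**
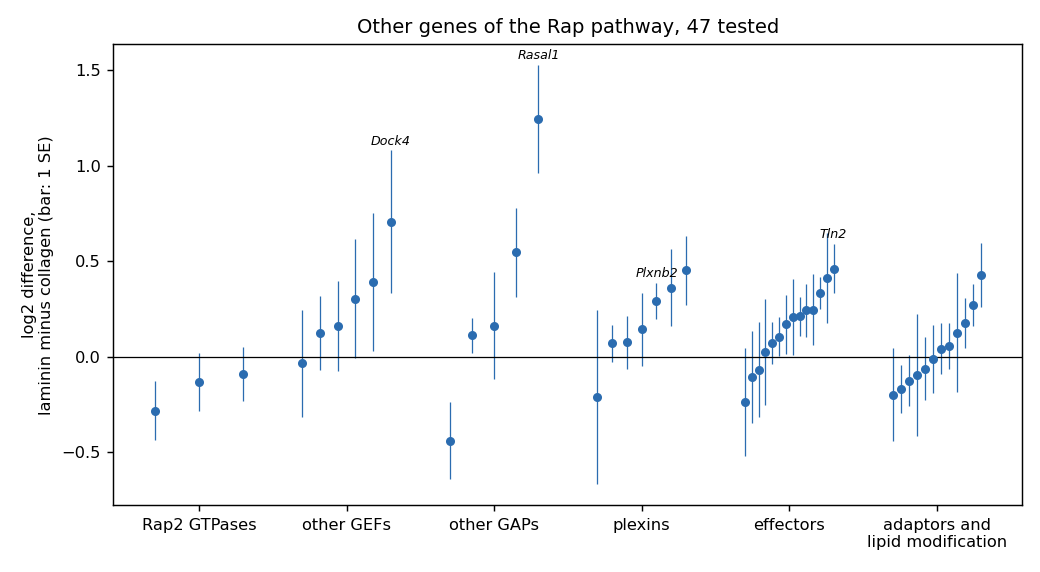
Log2 differences of laminin minus collagen (points) with 1 SE (bars) from edgeR for the 47 tested genes of the 6 lists, ordered by value within each list. Most points lie near 0, Rasal1 is highest at 1.24, and no gene passed the adjusted threshold.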

How the data were processed

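The authors deposited raw read counts (whole numbers) for each gene symbol and library in 1 table. Per the labels' protocols, stranded poly(A) libraries were made from 30 ng of RNA, and the submitters' processing notes name the genome build GRCm38 (mm10) and DESeq2. The aligner, the counting tool and its strand setting are not stated in any source read here. Genes were kept with filterByExpr (10789 of 18407), scaled by TMM and tested with edgeR 4.0.16 (quasi-likelihood F test, two-sided, threshold 0.05 after Benjamini-Hochberg adjustment over all genes) in R 4.3.3; SE is the log2 difference divided by the square root of F. Code letters were compared in a fit of 4 groups. Log2 CPM used a prior count of 2. Transcript lengths came from GENCODE M21 (99.9% of tested genes matched), and a spline trend on length and GC content per library (5 degrees of freedom each) was removed as an alternative. Coding sequences were aligned with mafft 7.526. Other alternatives were DESeq2 1.42.0, limma-voom (limma 3.58.1), other scalings and filters, a replicate block, and libraries left out. Named genes were the 10 members, the 3 pathway genes per list with the smallest p and any called, and the 5 genes most like Sipa1l2 or Rap1gap. Of these, 1 pathway gene is not reported here. The members and lists were chosen with earlier results of these data known. The steps were tested on simulated data. Even the most similar libraries differed beyond counting noise, so each was kept as 1 sample.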

Additional observations from a re-analysis of the deposited data

Results flagged for a closer look

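Among the members and named pathway genes, 56 sets of 5 libraries of 1 matrix were searched for a library far from the other 4, and 2 had one, where chance gives about 5% or 2.8. Rap2a in laminin replicate 2 was the highest at 5.32 log2 CPM, with the library nearest to it at 4.96. Tln1 in collagen replicate 4 was the lowest at 7.98, with the library nearest to it at 8.14. No member had such a library.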

How the results depend on the processing

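Over all genes, the count passing by matrix (16) was 209 with DESeq2, 29 without a filter, 125 with the length and GC trend removed, 2083 without the collagen libraries of letter B and 5 without those of letter D. It ran from 0 to 64 over the fits that left out 1 library. The replicate block gave 0, with 1049 genes at an unadjusted p under 0.05. Same-numbered libraries had correlations of deviations from -0.33 to 0.48, and 1 of 5 collagen and 0 of 5 laminin libraries correlated best with their own number, so the numbers were not taken as pairs. Sipa1l2 kept a difference of 0.93 to 1.66 on the log2 scale over all alternatives and lost its call in 8 of 10 fits leaving out 1 library. Of the pathway genes, 0 passed in edgeR, 3 with DESeq2 and 11 without the collagen libraries of letter B. The D minus B count (1708) was 488 with the trend removed and 0 to 3655 with 1 library left out. The F minus E count (0) was 1 with DESeq2 and 0 to 26 with 1 library left out.

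Small differences changed sign, and the cause was not tested. With the trend removed, by matrix, Rap2c was 0.011 and Tln1 -0.062; by D minus B, Sipa1 was -0.060, Sipa1l3 0.050, Rap1a 0.087 and Rapgef1 0.013; by F minus E, Rapgef2 was 0.028. Without the collagen libraries of letter B, Rap2a was 0.18 and Rap2c 0.13, and without those of letter D Rapgef5 was -0.053 and Crk -0.0032. Of the members by matrix, Rap1gap (0.02) was -0.39 and Rapgef1 (-0.01) 0.06 without letter B, Rapgef2 (0.21) was -0.06 and Sipa1l1 (0.14) -0.0017 without letter D, and Rap1gap ran from -0.12 to 0.21 and Rapgef1 from -0.09 to 0.03 with 1 library left out. With 1 library left out, D minus B ran from -0.13 to 0.091 for Rap1a. F minus E ran from -0.24 to 0.065 for Rapgef1, -0.42 to 0.24 for Rapgef2, -0.093 to 0.42 for Sipa1l2, -0.49 to 0.14 for Rap1gap and -0.36 to 0.14 for Sipa1l3. The r with the length slope ran from -0.28 to 0.099 for Rap1a and -0.43 to 0.029 for Rap1b. At 36 to 223 counts per library, Sipa1l2 is the member most limited by depth.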
